A study of Mus musculus with 4 samples.

Results

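The regions described are intronic circular RNAs of first introns in C2C12, a mouse muscle precursor line whose cells form myotubes in low serum. A circle was taken when it was listed as intronic, lay in the first intron of its transcript, and that intron was longer than 500 nt. Its end also had to lie more than 50 nt from the 3' end of the intron, and mitochondrial circles were left out. The rule found 3428 circles in 590 introns, which is 4.96% of the 69136 circles of the series and 5.27% of its 65062 intronic circles. The rule uses annotation and position, not read counts.

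The series holds 2 RPAD libraries and 2 libraries of total RNA. For all 4, C2C12 cells spent 3 to 4 days in differentiation medium, which held 2% horse serum. RPAD RNA was digested with RNase R for 30 min, its remaining linear RNA was polyadenylated, and polyadenylated RNA was then depleted. Total RNA had none of these steps, and ribosomal RNA was removed from both kinds. Every library is labelled C2C12, although the protocol for the RNase R step speaks of HeLa RNA. Separate cultures for the libraries of 1 group are not stated, so p-values over libraries measure a spread that may be technical. In bulk RNA, fewer cells with a circle and less of it per cell cannot be told apart.

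When an intron is spliced out, its 5' end is joined to an internal branch point, and the product is a lariat. The lariat is normally opened by the debranching enzyme and degraded. Intronic circles are generally described as lariats that escape debranching and lose the tail behind the branch point, so that they run from the 5' splice site to a point inside the intron. Branch points usually lie close to the 3' splice site. First introns follow the first exon and are often the longest intron of a gene.

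All entries of these circles, 100%, began exactly at the 5' end of their intron. The intron number ran from the 5' end of the transcript on both strands: it did so in 80 of 80 plus-strand and 89 of 89 minus-strand transcripts with at least 4 listed introns in a library. Whether an intron is a first intron depended on the transcript model. Of the 590 introns, 309 (52.4%) were first in at least 1 transcript with an Ensembl-style name, and 281 were first only in models assembled by the authors. For 19 introns, some entries gave the same circle another intron number or another intron. The 590 introns began at 586 different 5' splice sites, 4 of which served a pair of introns with different 3' ends. The files do not pair transcripts with gene symbols, and 0 host transcripts matched the name tables used here, so introns are given by position in mm9, counted from 1.

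The circles occupied a short stretch next to the 5' splice site. Their median length was 164 nt, with quartiles at 126 and 232 nt, and 79.2% measured 100 to 250 nt. The shortest had 77 nt and 0.292% were below 100 nt. Their ends lay far from the 3' splice site: the median distance was 1466 nt, with quartiles at 805.5 and 2477.5 nt. Only 8 circles ended 51 to 100 nt from it, and the median circle covered 11.0% of its intron.

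Circle length varied little with intron length. In 136 first introns of 501 to 1000 nt the median circle had 143 nt. It had 168 nt in 201 introns of 1001 to 2000 nt, 177 nt in 120 introns of 2001 to 5000 nt, and 173 nt in 133 longer introns. The share of the intron inside the circle was smaller in longer introns, with medians of 21.2%, 12.2%, 7.0% and 1.84% over the same classes. Across the 590 introns, the Spearman correlation of intron length with the median length of its circles was 0.127. This correlation is over introns, which share libraries and are not replicates.

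**Figure D1:**
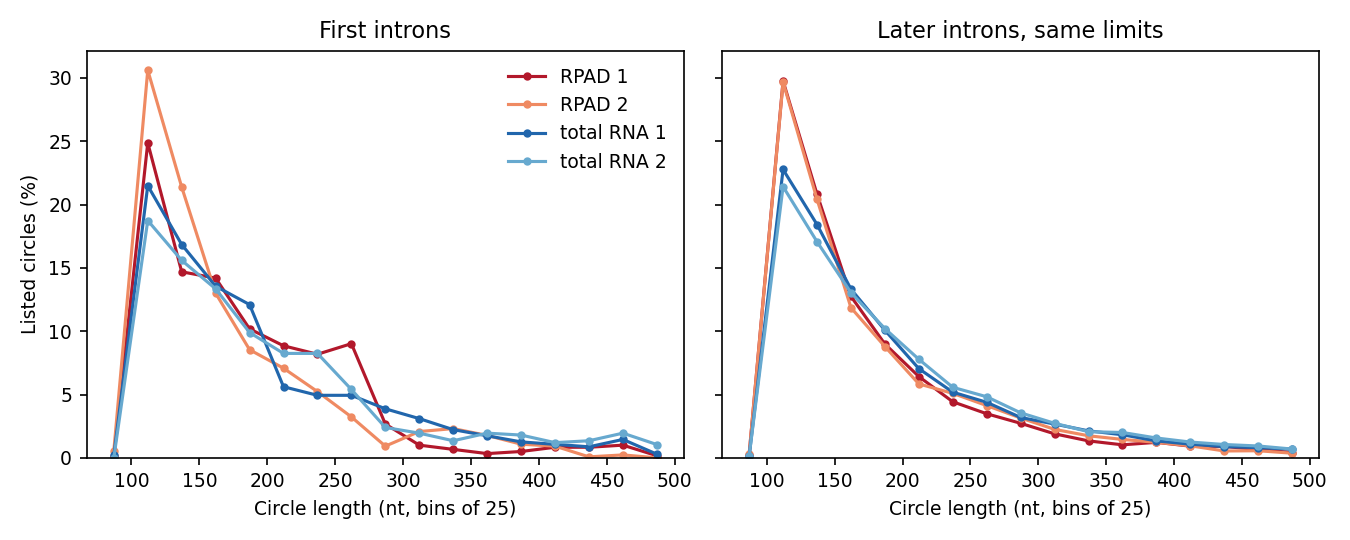
Length of listed intronic circles in nt (x axis, bins of 25 nt from 75 to 499 nt) against the percentage of the library's listed circles (y axis), for first introns (left) and later introns under the same limits (right), 1 line per library. Every library peaks at 100 to 124 nt in both panels, and very few circles are shorter.

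Fewer first introns gave circles in RPAD RNA, and each gave more. RPAD libraries 1 and 2 listed circles in 74 and 135 first introns, against 269 and 214 in total RNA libraries 1 and 2. The groups did not overlap, with means of 104.5 ± 43.1 introns in RPAD and 241.5 ± 38.9 in total RNA (SD, n = 2 each). The mean number of circles per listed intron was 8.09 and 9.63 in RPAD, against 3.84 and 3.12 in total RNA. Reads per circle averaged 3.94 and 3.49 in RPAD and 1.52 and 1.27 in total RNA. These 3 differences each had an exact two-sided permutation p of 0.333, and 2 against 2 libraries can give none smaller.

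The kinds of RNA differed in back-splice reads, so the values were also set to an equal number of them. The RPAD libraries held 150478 and 191246 back-splice reads, the reads across the junction that closes a circle, and the total RNA libraries held 38850 and 35981. At 35981 back-splice reads per library, 59.6 and 92.0 first introns would be listed in RPAD, against 262 and 214 in total RNA. Circles per intron at that number would be 5.65 and 5.51 in RPAD, against 3.71 and 3.12 in total RNA. Reads per circle would be 1.68 and 1.68 in RPAD, against 1.49 and 1.27 in total RNA, a difference of 0.294 in place of 2.32 as listed. The 3 directions held at this number, which equalises back-splice reads and not sequencing depth. With at least 5 reads required per circle the order of the introns turned: 45 and 49 first introns were left in RPAD and 5 and 2 in total RNA. That limit was set on the reads as listed, not at an equal number. It is therefore a stricter limit, as a share of back-splice reads, in total RNA than in RPAD.

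In number of circles and share of reads the groups overlapped as listed. RPAD listed 599 and 1300 first-intron circles and total RNA 1033 and 667, with means of 949.5 ± 496 in RPAD and 850.0 ± 259 in total RNA (SD, n = 2 each; exact permutation p = 1). Without RPAD library 2 the difference from total RNA turned from 99.5 to -251 circles, and without total RNA library 2 it was -83.5. At 35981 back-splice reads per library the order turned without overlap, with 337 and 507 circles in RPAD and 971 and 667 in total RNA. First-intron circles took 1.57% of back-splice reads in RPAD library 1 (95% exact interval 1.51 to 1.63) and 2.37% in RPAD library 2 (2.30 to 2.44). In total RNA they took 4.03% (3.84 to 4.23) and 2.36% (2.21 to 2.52). RPAD library 2 and total RNA library 2 thus lay within counting error of each other, and the exact permutation p of the group difference was 0.667. Without the intron with most reads in each library, the shares were 1.44% and 1.83% in RPAD and 3.35% and 2.24% in total RNA, which did not overlap (exact permutation p = 0.333). They also did not overlap for introns over 1000 nt, with 1.27% and 1.25% in RPAD and 2.29% and 1.74% in total RNA, or for junctions of score 0.

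Single reads dominated the total RNA lists. Circles with 1 read made up 22.5% and 42.1% of the first-intron circles in RPAD, against 79.7% and 78.0% in total RNA. For later introns under the same limits they made up 17.4% and 33.9% in RPAD, against 79.1% and 73.8% in total RNA. In RPAD 182 and 233 first-intron circles reached 5 reads, and in total RNA 10 and 2. The median circle had 168 and 145 nt in RPAD and 170 and 180 nt in total RNA (exact permutation p = 0.333). That order did not hold for circles with at least 5 reads, whose medians were 170 and 130 nt in RPAD and 113.5 and 119.5 nt in total RNA.

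**Figure D2:**
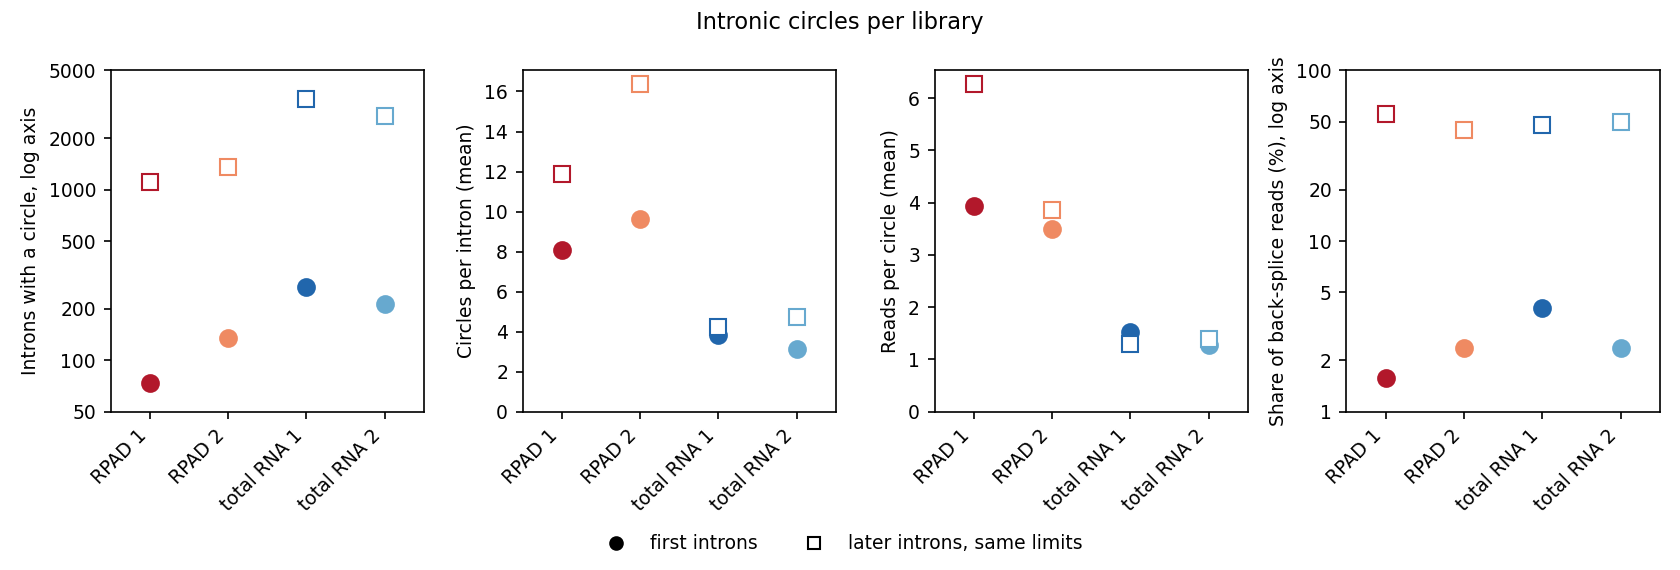
Introns with a circle (log axis), mean circles per intron, mean reads per circle, and share of all back-splice reads in percent (log axis) for the RPAD and total RNA libraries. Filled circles are first introns and open squares later introns under the same limits. RPAD has fewer introns and more circles per intron than total RNA in both classes.

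Because all circles began at the 5' splice site, many circles in a first intron meant as many ends, which formed a closely spaced ladder. Of the 590 introns, 223 had 1 circle and 95 had at least 10, and those 95 held 60.6% of the circles. Within a single library, 92 cases (85 introns) had at least 10 circles. In these the ends spread over a median of 78.0 nt (range 10 to 453), and the median gap between neighbouring ends had a median of 2.5 nt. The most abundant end held a median of 13.5% of the reads of its intron, with a range of 4.89 to 45.6%, so none held the majority. Taking cases with at least 10 circles favours a low share for any 1 end. The ladders of RPAD and total RNA looked alike in span. The medians were 81.5 and 68.5 nt in RPAD libraries 1 and 2 (20 and 42 introns), and 81.5 and 79.0 nt in total RNA (20 and 10 introns).

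The intron with the most reads overall lay on chromosome 10 from 126747591 to 126748576, minus strand (986 nt, ENSMUST00000037290 and ENSMUST00000171564). It had 0 and 1034 reads in RPAD libraries 1 and 2, against 6 and 8 in total RNA. Nearly all of its reads thus came from 1 RPAD library, and the groups overlap. Its 65 circles, the highest number for a first intron, measured 101 to 169 nt, and the end nearest to the 3' splice site lay 817 nt from it. The most abundant, from 126748474 to 126748576 (103 nt), had 52 reads, 4.96% of the intron.

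A similar ladder stood on chromosome 11 from 115941995 to 115942545, minus strand (551 nt). It had 0 and 542 reads in RPAD, against 13 and 44 in total RNA, so RPAD libraries 1 and 2 lay on either side of total RNA. This intron was first only in an assembled model, PREDICTED.147107.2, and carried number 4 in another. Its 31 circles measured 101 to 174 nt. The circle from 115942438 to 115942545 (108 nt) led with 0 and 45 reads in RPAD and 0 and 5 in total RNA.

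By mean share over the 4 libraries, the first place belonged to an intron on chromosome 5 from 129634040 to 129634728, plus strand (689 nt, assembled model PREDICTED.161099.5). It had 0 reads in both RPAD libraries, 263 in total RNA library 1 and 0 in total RNA library 2. Its pattern of ends was narrower than the ladders: 4 neighbouring ends at 111, 112, 113 and 114 nt had 25, 52, 120 and 53 reads in total RNA library 1. Together they held 250 reads, 95.1% of the intron, and these circles took the first 4 places by mean share among all first-intron circles. They were listed in that library alone.

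**Figure D3:**
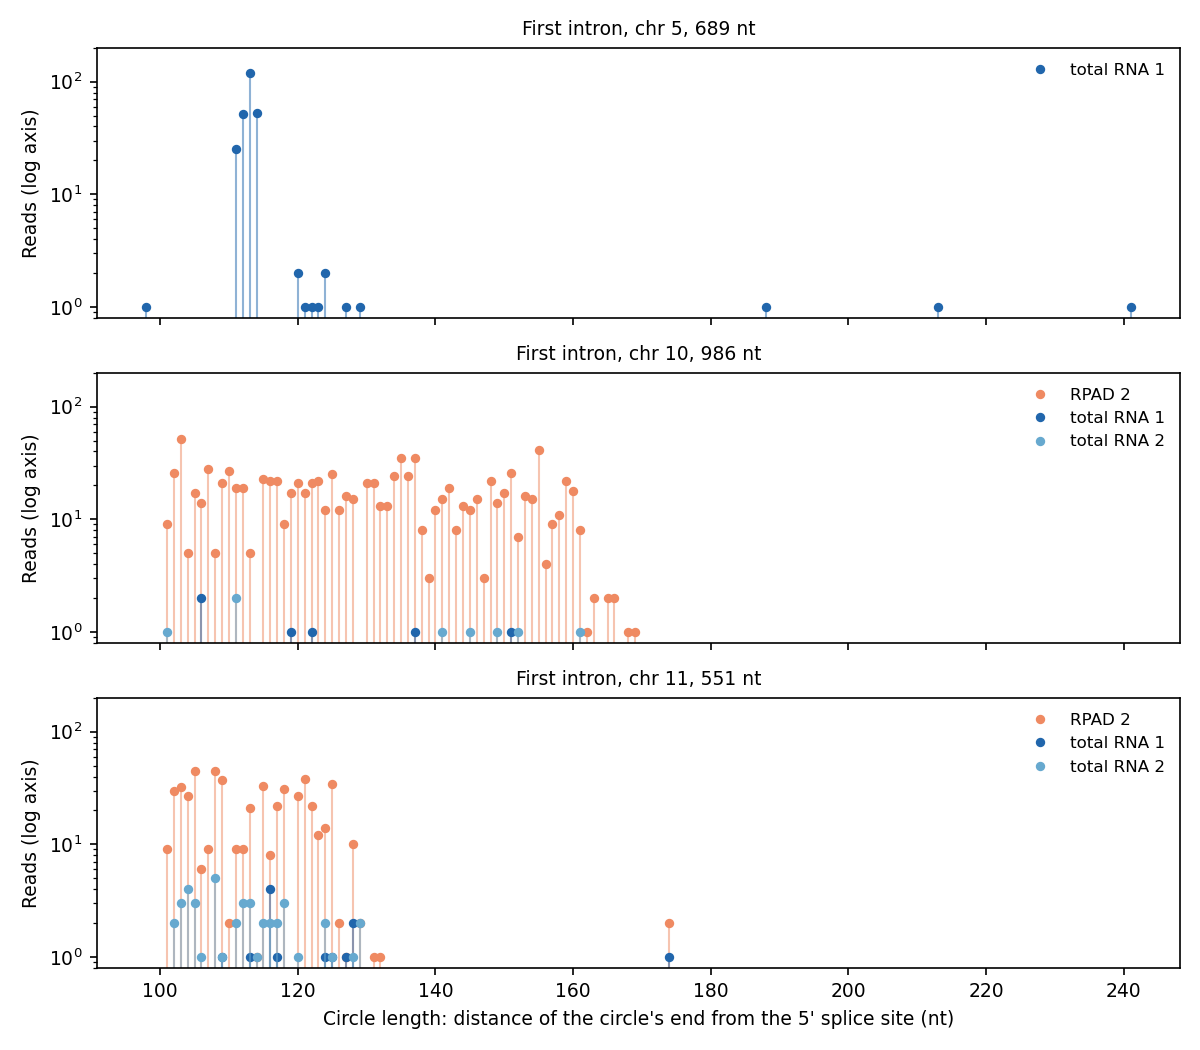
Back-splice reads (y axis, log axis) by circle length, which is the distance of the circle's end from the 5' splice site in nt (x axis), for the 3 first introns with the highest mean share. Points are single circles coloured by library. The chromosome 10 and 11 introns show dense ladders of ends, and the chromosome 5 intron 4 neighbouring ends that hold 250 of 263 reads.

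The other introns of the 10 with the highest mean share also drew their reads mainly from 1 library. An intron on chromosome 8 (109962715 to 109963291, minus strand, 577 nt, assembled model) had 67 reads in total RNA library 1 and 0 in the other 3 libraries, over 41 circles. On chromosome 6 (124718739 to 124719454, minus strand, 716 nt, ENSMUST00000156033) 192 reads in RPAD library 1 were spread over 44 circles, with 0 elsewhere. On chromosome 3 from 96073901 to 96081670 (plus strand, 7770 nt, ENSMUST00000051089) RPAD library 1 had 190 reads over 35 circles and the others 0. These 3 introns were thus absent from 3 libraries despite 67 to 192 reads in the other.

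Reads in a pair of libraries were seen for 3 of the 10. The chromosome 3 intron from 87775911 to 87776913 (plus strand, 1003 nt, ENSMUST00000090973) had 0 and 0 reads in RPAD, against 54 and 4 in total RNA. The chromosome 9 intron from 65908208 to 65909273 (plus strand, 1066 nt, ENSMUST00000034947) had 0 and 0 against 7 and 40. Both were listed in total RNA alone, and their circles were longer, with medians of 283 and 235.5 nt. The third, on chromosome 11 from 58792147 to 58794742 (plus strand, 2596 nt, ENSMUST00000093061 and ENSMUST00000108809), had 173 and 0 reads in RPAD, against 4 and 0 in total RNA. Its log2 fold change of 2.81 (SE 3.16, edgeR adjusted p = 0.805) was -5.52 without RPAD library 1.

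The last of the 10 had reads in 3 libraries. It lay on chromosome 5 from 23928705 to 23929266 (minus strand, 562 nt, ENSMUST00000030814 and 2 assembled models) and had 12 and 0 reads in RPAD, against 36 and 9 in total RNA. In all, 4 of these 10 introns were listed in 1 library, 3 in 2 and 3 in 3. None, 0 of 10, had reads in both RPAD libraries, while 5 had reads in both total RNA libraries.

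**Figure D4:**
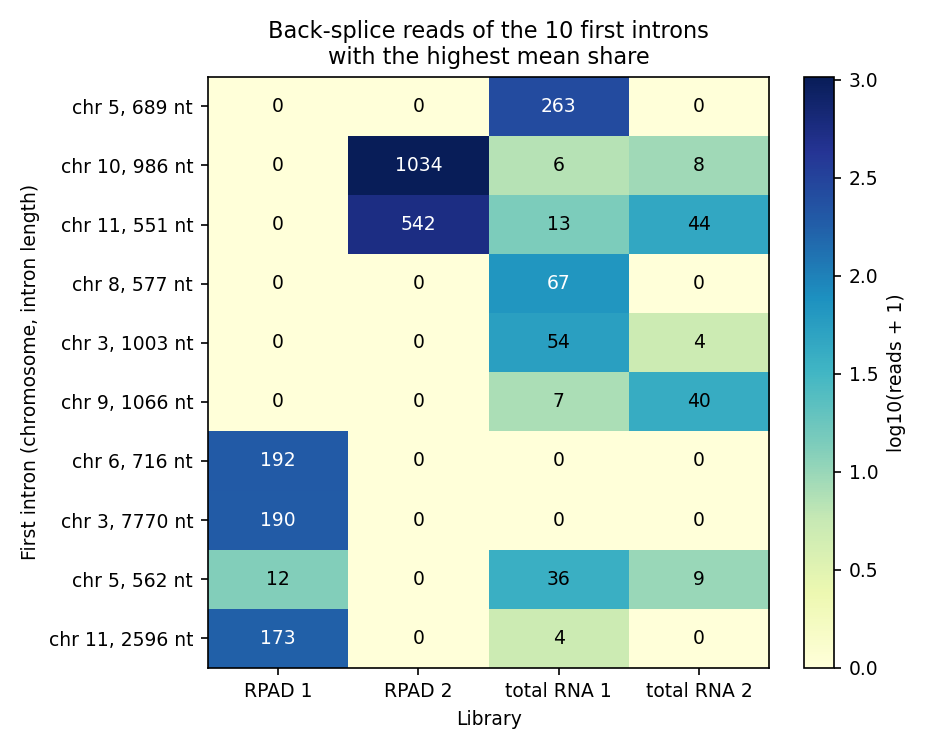
Back-splice reads (printed in each cell, colour on a log10 scale of reads + 1) of the 10 first introns with the highest mean share of reads, by library. Each row has at most 3 libraries with reads, and no row has reads in both RPAD libraries.

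Absence from the partner library was common in both kinds of RNA. Of 44 first introns with at least 10 reads in RPAD library 1, 39 had 0 reads in RPAD library 2 (88.6%, 95% exact interval 75.4 to 96.2). In the other direction it was 53 of 63 (84.1%, 72.7 to 92.1). In total RNA, 16 of 30 introns (53.3%, 34.3 to 71.7) and 14 of 24 (58.3%, 36.6 to 77.9) had 0 reads in the partner. For later introns under the same limits the shares were 75.6% and 79.6% in RPAD, and 45.8% and 42.8% in total RNA. Of the 590 introns, 510 (86.4%) were listed in 1 library, and so were 95.4% of the circles. No first-intron circle, 0 of 3428, was listed in all 4 libraries, and 14 were listed in 3.

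When an intron recurred, its ends often did not. RPAD libraries 1 and 2 shared 13 first introns, 17.6% and 9.63% of their lists, and in these 50 circles were common, 60.2% and 23.8% of the circles there. Total RNA libraries 1 and 2 shared 48 introns, 17.8% and 22.4% of their lists, with 32 common circles, 9.38% and 13.8% of the circles in those introns. The overlap of ends within shared introns was therefore higher in the RPAD pair, which had more circles per intron. No test of this difference was made.

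Only 4 first introns had reads in all 4 libraries. The one with the highest counts lay on chromosome 19 from 21354241 to 21354912 (plus strand, 672 nt, ENSMUST00000133175), with 34 and 92 reads in RPAD, against 3 and 4 in total RNA. Its 23 circles stayed within 98 to 132 nt, 12 of them were seen in at least 2 libraries and 6 in 3. It carried numbers 4 and 5 in other models. A chromosome 9 intron from 49376655 to 49377930 (minus strand, 1276 nt, ENSMUST00000114481 and ENSMUST00000114483) had 53 and 31 reads in RPAD, against 2 and 2 in total RNA, and 12 of its 18 circles recurred. Some entries gave circles of this intron number 2.

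The remaining pair recurred as introns but hardly as circles. On chromosome 2 from 117937812 to 117938350 (plus strand, 539 nt, ENSMUST00000039559) there were 6 and 21 reads in RPAD, against 16 and 4 in total RNA, and 2 of 33 circles recurred. On chromosome 19 from 12567041 to 12575496 (minus strand, 8456 nt, ENSMUST00000045521) there were 1 and 11 reads in RPAD, against 1 and 9 in total RNA, and 1 of 15 circles recurred. In both introns the read counts of RPAD and total RNA overlapped.

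Between RPAD and total RNA, no first intron passed the threshold. Reads of the member circles were summed per intron and fitted together with all other introns and exonic circles (edgeR quasi-likelihood test, Benjamini-Hochberg adjusted p under 0.05). Of the 590 first introns, 40 passed the filter on low counts and 0 were called, against 0% of all 1392 features tested. The smallest adjusted p among first introns was 0.119 (edgeR). At an unadjusted p under 0.05, 15 of the 40 (37.5%) were lower in RPAD, against 28.7% of all features, and 1 (2.5%) was higher, against 1.58%. Of these 15, 14 had 0 reads in both RPAD libraries, so the filter had fixed their direction. The 1 higher intron had 0 reads in both total RNA libraries, so its direction was fixed too. DESeq2 called 7 of the 40 (17.5%), all lower in RPAD, against 13.6% of all features called lower, and gave 16 of the 40 no adjusted p. Those 7 also had 0 reads in both RPAD libraries. With RPAD library 1 left out, the median log2 fold change (edgeR) of the 40 was -5.07, against -4.51 over all features. With RPAD library 2 left out it was -6.90, against -5.81. Without total RNA library 1 it was -2.31, against -0.947, and without total RNA library 2 -2.72, against -0.870.

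Which introns could be tested was set largely by total RNA, since the filter asked for a share of reads that took fewer reads there than in RPAD. The counts over the 40 describe the introns that passed, not all 590. Their median log2 fold change was -2.40, against -1.02 over all features, and 27 of 40 (67.5%) were below 0, against 62.1%. RPAD lay below total RNA without overlap for 20 (50%), against 38.5% of all features, and above it for 3 (7.5%), against 8.91%. Without the filter, the median of the 590 first introns and that of all 11962 features were both -3.9481. Sparse features with the same counts can share 1 value, so this identity does not compare first introns with the table. No difference between first introns and the table was tested.

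Part of the 40 passed the filter through total RNA alone. Of the 40, 14 (35.0%) had 0 reads in both RPAD libraries, against 27.9% of all features, with 2 to 54 reads per library in total RNA. Their log2 fold changes ran from -9.71 to -7.21, a direction fixed by how they passed, and sizes that depend on how 0 reads are handled. Another 1 of the 40 (2.5%) had 0 reads in both total RNA libraries, against 2.37% of all features. Its direction was likewise fixed by how it passed. Reads in both RPAD libraries were found for 7 of the 40.

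The smallest p-values on the lower side belonged to introns with few reads. On chromosome 11 from 98544252 to 98546795 (plus strand, 2544 nt, ENSMUST00000017365) there were 0 and 0 reads in RPAD, against 10 and 12 in total RNA, at least 33.5-fold lower. On chromosome 7 from 13619392 to 13619983 (minus strand, 592 nt, ENSMUST00000005711) there were 0 and 0 against 8 and 10, at least 27.4-fold lower. On chromosome 9 from 107465864 to 107466906 (plus strand, 1043 nt, ENSMUST00000010198) there were 0 and 0 against 5 and 10, at least 22.8-fold lower. The edgeR adjusted p was 0.119 for each. All of these introns passed the filter through total RNA alone, so their direction was fixed beforehand and the p-values do not test it. The bounds use a floor of 3 reads over the RPAD group and library totals, and cover the counting error of the 0 reads alone.

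On the higher side, a chromosome 19 intron from 5796519 to 5798448 (minus strand, 1930 nt, assembled models) had 83 and 75 reads in RPAD, against 0 and 0 in total RNA. It was at least 11.5-fold higher in RPAD (floor of 3 reads over the total RNA group), with an edgeR adjusted p of 0.123. This intron passed the filter through RPAD alone, so its direction was fixed beforehand and the p-value does not test it. A shorter model of 1185 nt, from 5797264 to 5798448, shares its 5' splice site and had 0 and 120 reads in RPAD, against 0 and 0 in total RNA. Summed over the shared site, the reads were 83 and 195 in RPAD and 0 and 0 in total RNA, over 54 circles. Next by p-value were the chromosome 10 intron above, with a log2 fold change of 3.46 (SE 3.15, edgeR adjusted p = 0.734), and the chromosome 9 intron from 49376655, with 1.69 (SE 1.67, edgeR adjusted p = 0.766). For the chromosome 10 intron the sign was set by RPAD library 2: without it the log2 fold change was -7.30.

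**Figure D5:**
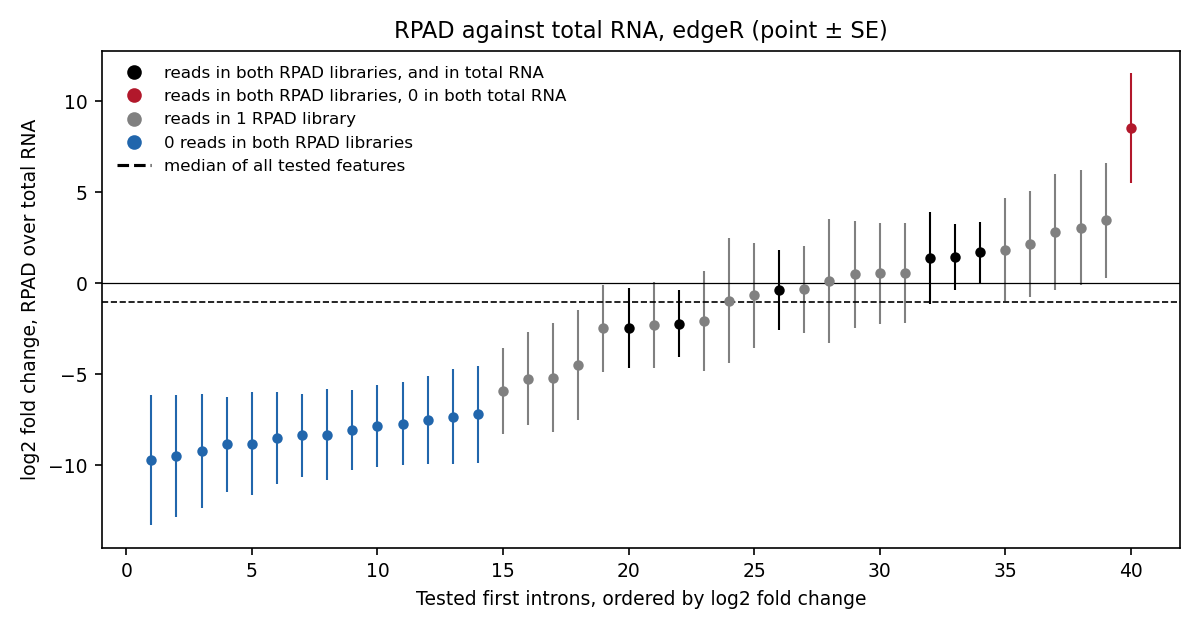
Log2 fold change of RPAD over total RNA (y axis, point ± SE from the edgeR fit) for the 40 tested first introns, ordered by value (x axis). Colours mark in which libraries reads were found, and the dashed line is the median of all 1392 features, -1.02. The 14 introns with 0 reads in both RPAD libraries form the low end.

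Single circles gave less to test. Of the 3428 circles, 12 passed the filter, 11 in the chromosome 11 intron of 551 nt and 1 in the chromosome 10 intron. All 12 had 0 reads in RPAD library 1. edgeR called 0 of them, with 0 at an unadjusted p under 0.05, against 0% of all 924 circles tested, with 1.73% (higher) and 15.8% (lower) at that unadjusted p. DESeq2 called 7.79% of the 924 circles lower and gave none of the 12 an adjusted p. Of the 12, 0 lacked reads in both total RNA libraries, against 3.68% of the 924. Log2 fold changes ran from -1.88 to 1.81, and the smallest edgeR adjusted p was 0.999. Below 0 were 2 of 12, against 53.9% of the 924. RPAD library 2 alone set this: the median over the 12 was 1.00, and without that library it was -5.16.

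The tested circles differed in end by a few nucleotides, and their fold changes lay within 1 SE of 0. The circle from 115942431 to 115942545 (115 nt) had 0 and 33 reads in RPAD and 0 and 2 in total RNA, a log2 fold change of 1.81 (SE 2.76). Its neighbour from 115942430 (116 nt) had 0 and 8 in RPAD and 4 and 2 in total RNA, a log2 fold change of -1.88 (SE 2.38). The circle from 115942441 (105 nt) had 0 and 45 against 0 and 3, and that from 115942444 (102 nt) 0 and 30 against 0 and 2. A longer one from 115942422 (124 nt) had 0 and 14 against 1 and 2. Outside these introns, the circle on chromosome 6 from 136824031 to 136824190 (160 nt) had 0 and 0 reads in RPAD, against 11 and 0 in total RNA.

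Compared with later introns under the same limits on length and end (56466 circles in 6426 introns), first introns were longer in all 4 libraries. Their median length was 1769 and 1631 nt in RPAD and 1841 and 1584.5 nt in total RNA, against 1404 and 1209 nt in RPAD and 1479 and 1441 nt in total RNA for later introns. The mean difference was 323 ± 123 nt (SD, n = 4 libraries; exact sign-flip permutation p of 1 in 8, the smallest that 4 libraries can give; Benjamini-Hochberg adjusted 0.312 over 5 measures). With junctions of score 0 alone the difference was -39.1 nt.

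First introns also held fewer circles each than later introns. The mean was 8.09 and 9.63 circles per first intron in RPAD and 3.84 and 3.12 in total RNA. Later introns had 11.9 and 16.4 in RPAD and 4.23 and 4.73 in total RNA. The difference of -3.14 ± 2.79 was negative in 4 of 4 libraries (SD, n = 4; exact permutation p of 1 in 8, adjusted 0.312). Over all libraries, 16.1% of first and 24.6% of later introns had at least 10 circles. The difference was not the same at every intron length. In introns of 501 to 1000, 1001 to 2000 and 2001 to 5000 nt the median was 2, 3 and 2.5 circles in first introns. It was 4, 4 and 3 in later introns of these classes. Above 5000 nt it was 2 in both.

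The remaining measures did not separate the classes. Circle length differed by 7.5 ± 9.95 nt (3 of 4 libraries higher, exact permutation p = 0.25, adjusted 0.375). The share of the intron inside the circle differed by -1.35 ± 2.00 points, and reads per circle by -0.655 ± 1.15 (SD, n = 4; exact permutation p = 0.375 and adjusted 0.375 for both). In introns of 501 to 1000 nt the median circle had 143 nt in first and 154 nt in later introns, and above 5000 nt it had 173 nt in first and 158 nt in later introns.

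First introns were shared less between libraries, and their host transcripts listed fewer other circles, by measures chosen after seeing the data. Of the first introns of a library, 27.3% ± 2.74 were listed in another library, against 45.7% ± 5.88 of later introns (SD, n = 4 libraries, lower in 4 of 4). Their host transcript listed an exonic circle in the same library for 6.76% ± 3.25, against 19.1% ± 5.68 for later introns. It listed intronic circles of another intron for 15.5% ± 4.17, against 40.0% ± 5.31. Each difference had an exact sign-flip permutation p of 1 in 8, the smallest possible, and of 1 in 8 after Benjamini-Hochberg adjustment over these 3. First introns also had fewer circles each, and the part of this in the lower recurrence was not tested. The files do not give the number of introns of a host, and short assembled models have fewer other introns.

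A few circles were far longer than the rest. Of the 3428, 32 exceeded 1000 nt and 13 exceeded 10000 nt, with 1 and 11 reads above 1000 nt in RPAD and 16 and 20 in total RNA. The longest, on chromosome 4 from 145260509 to 145453680 (plus strand, 193172 nt), had 0 and 2 reads in RPAD and 0 and 0 in total RNA, and ended 221 nt from the 3' end of its intron. A circle of 105607 nt on chromosome 7 (28521281 to 28626887, plus strand) had 0 and 0 reads in RPAD and 0 and 1 in total RNA, and ended 298 nt from the 3' end. The next in length, both on chromosome 13, measured 97463 nt (74631076 to 74728538, minus strand) and 83529 nt (62566329 to 62649857, plus strand), each with 1 read in RPAD library 2 and 0 in the other 3 libraries. They ended 31228 and 102835 nt from the 3' end and covered 75.7% and 44.8% of their introns. On chromosome 15 a pair of neighbouring circles of 18282 and 18280 nt, ending 214 and 216 nt from the 3' end, had 3 and 2 reads in RPAD library 2 and 0 in the other 3 libraries. Of these 6 circles, the other 4 covered 98.8% or more of their intron.

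Reads on the 2 sides of the rule's limits differed in how they fell on the libraries. First introns of 501 to 600 nt held 250 circles with 21 and 616 reads in RPAD and 175 and 73 in total RNA. A few introns weighed heavily in this class. The chromosome 11 intron of 551 nt alone had 0 and 542 reads in RPAD and 13 and 44 in total RNA. The chromosome 8 intron of 577 nt had 67 in total RNA library 1. First introns of 401 to 500 nt, outside the rule, held 288 circles with 492 and 1383 reads in RPAD and 65 and 63 in total RNA. Circles ending 51 to 100 nt from the 3' end numbered 8 with 12 reads, and those ending within 50 nt, outside the rule, numbered 32 with 110 reads in 8 introns.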

How the data were processed

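Each deposited file lists the circles of 1 library, with raw counts of back-splice reads per circle (whole numbers of at least 1) and a junction score of 0 to 3, per the file headers. What the deposited score means is not stated, and an alternative alone used it. Per the submitters' processing notes, the genome build was mm9 and the tools included TopHat, cutadapt and Cufflinks 2.2.1. Of the junction caller, the name was not given in the sources used. Per the labels' protocols, cDNA was amplified by 17 PCR cycles with no molecular identifiers named, and hence every interval or floor covers counting error only. Read totals are back-splice reads, not sequencing depth.

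Circles were matched between libraries by position and strand, and 1 was a member when any of its entries met the rule. Where a library did not list a circle, it counted 0 reads. Each circle was assigned to 1 intron. Member circles were summed per intron, other circles of the same intron were summed apart, and exonic circles stayed separate features. Fits used edgeR 4.0.16 in R 4.3.3 (quasi-likelihood F test, TMM scaling, filterByExpr with minimum count 5 and minimum total 10, group as the only term). P-values were adjusted by Benjamini-Hochberg over all features tested. The SE is the absolute log2 fold change divided by the square root of F. DESeq2 1.42.0 was the alternative. Library values were compared by exact permutation tests, and shares carry exact Clopper-Pearson 95% intervals. Expected values at 35981 reads were computed without random draws. The edgeR fits were also run on simulated counts, and the outcome is not reported here. Other software was scipy 1.17.1, numpy 2.4.6, Python 3.11.15, matplotlib 3.10.9 and pandas 2.3.3.

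The members, the lists and the comparison with later introns were chosen with earlier results of these data known. The rule for named items took the 10 introns and 8 circles with the highest mean share of reads. Because no member was called, it added up to 3 introns and 3 circles per direction, taken by lowest p. Introns seen in all 4 libraries, the longest circles and the model sharing a 5' splice site were named after their values were seen. No sequence is printed, since no genome of the mm9 build was used here.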

Additional observations from a re-analysis of the deposited data

How the results depend on the processing

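With at least 5 reads per circle, which left 10 and 2 circles in total RNA, differences of RPAD minus total RNA became 0.763 points for the share of reads, 43.5 for introns, 33.5 nt for circle length and -7.57 for reads per circle. Those of first minus later introns became -11.0 nt for circle length and 4.49 for reads per circle. At 35981 back-splice reads per library the difference in circles was -397. Junctions of score 0 gave -39.1 nt for first minus later intron length. Leaving out 1 library gave -251 to 450 for the difference in circles, and no other group or first-minus-later difference changed sign. DESeq2 called 7 first introns and 1 library left out gave 0 to 20 calls (14 without RPAD library 1, 20 without RPAD library 2). Such fits take the spread of a single library from the other group. Those without an RPAD library also called many features of the whole table, mostly lower in RPAD, as were most of the first introns called. These calls are therefore not particular to first introns, and a difference from the table was not tested. Calls stayed at 0 with totals alone, without the filter, with at least 10 reads in 2 libraries, and with all intronic circles of an intron summed. That last setting, entries that meet the rule themselves, leaving out the intron with most reads, and the settings for reads per circle between RPAD and total RNA were chosen after seeing the data. No member circle had 10 reads in 2 libraries, so that setting gave no value for circles.

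With the replicate block edgeR called 0 first introns and 0 circles, and log2 fold changes were -0.96 for the chromosome 10 intron and -3.27 for the chromosome 11 intron of 551 nt. Deviations of same-numbered libraries correlated at 0.0278 over circles and 0.0891 over introns and exonic circles. In counts this sparse, these correlations cannot decide whether same-numbered libraries were paired. Leaving out 1 library gave log2 fold changes of -7.30 to 4.56 for the chromosome 10 intron, -9.30 to 1.70 for that chromosome 11 intron and -5.52 to 9.0 for the chromosome 11 intron from 58792147. For chromosome 11 circles it gave -5.86 to 7.26 (from 115942438), -5.15 to 7.26 (115942441), -4.59 to 6.82 (115942431), -4.59 to 6.68 (115942444) and -5.18 to 1.17 (115942422). The last had -0.03 in the reported fit, 0.33 with DESeq2 and 0.81 without the filter. The cause of these changes was not tested. The low reads per circle in total RNA, 1.52 and 1.27, limit what can be compared.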
